A study of Mus musculus with 4 samples.

Results

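The AP-1 transcription factor genes were followed in mouse bone marrow cells that had been cultured in macrophage colony-stimulating factor (M-CSF) during space flight or on the ground. They were taken as every probe set whose gene symbol in the platform annotation is Fos, Fosb, Fosl1, Fosl2, Jun, Junb, Jund, Batf or Batf3, which gave 13 of the 45101 probe sets on the array and all 9 genes. Marrow of 21 adult C57BL/6 mice was pooled and loaded into sealed glass barrels in medium with M-CSF at 1.5 µg/ml. The space flight group consisted of barrels flown on a space shuttle and lysed on culture day 15, which was day 14 of the flight. The ground control group consisted of parallel barrels on the same 37 °C temperature and mixing schedule. In both groups fresh medium with M-CSF was mixed in on culture day 6, and RNA of 2 barrels was pooled for each of the 2 arrays per group. All cultures thus came from 1 pool of marrow, and the p-values measure how cultures and arrays varied and say nothing of variation among mice.

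AP-1 is a dimer of basic leucine zipper proteins. A protein of the Jun group pairs with another Jun protein or with a protein of the Fos or Batf group, and the pair grips DNA at a short palindrome whose classical form is TGACTCA. Fos and several relatives are immediate early genes, transcribed within minutes when MAP kinases signal from growth factor, cytokine or stress receptors, and their transcripts are short-lived. In the marrow, Fos is known from knockout mice to be needed for osteoclasts, which arise from the same precursors as macrophages, while Batf3 is needed for a class of dendritic cells.

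The annotated promoters of the Jun genes and Fos are shown because these genes carry most of the values described here. Of the 9 genes, 8 had an entry in the RefSeq promoter table of build GRCm38.p6. The last 150 bases before the annotated start are printed for the 3 Jun genes and for Fos, in lower case, with matches on either strand to the motifs named below in capitals.
Jun, chr4:95052223-95052372, minus strand: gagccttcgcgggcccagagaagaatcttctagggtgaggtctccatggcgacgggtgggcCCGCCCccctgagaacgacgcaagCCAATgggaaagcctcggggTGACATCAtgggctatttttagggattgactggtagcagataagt
Junb, chr8:84978749-84978898, minus strand: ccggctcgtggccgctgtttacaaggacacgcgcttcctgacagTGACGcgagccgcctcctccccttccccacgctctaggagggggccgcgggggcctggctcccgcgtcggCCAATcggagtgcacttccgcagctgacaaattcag
Jund, chr8:70697589-70697738, plus strand: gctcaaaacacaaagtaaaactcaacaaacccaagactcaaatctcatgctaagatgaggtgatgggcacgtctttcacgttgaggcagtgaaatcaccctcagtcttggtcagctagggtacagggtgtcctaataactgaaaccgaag
Fos, chr12:85473740-85473889, plus strand: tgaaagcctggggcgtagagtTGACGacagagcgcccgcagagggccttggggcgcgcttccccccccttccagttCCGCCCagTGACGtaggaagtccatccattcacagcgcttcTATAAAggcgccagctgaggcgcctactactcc

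The motifs were searched in the 250 bases before the start. The letters TGACATCA, the variant AP-1 site through which c-Jun is known to act on its own promoter, stood 45 to 38 bases before the start of Jun, in none of the other windows, and in 2.93% of all 32851 promoters. The classical letters TGACTCA (4.46% of all promoters), the cyclic AMP response letters TGACGTCA (1.55%) and the CArG box of serum response factor (1.47%) were found in none of the 8 windows. The shorter letters TGACG, which form part of TGACGTCA, stood in the windows of Fos, Fosb, Junb and Batf and in 17.8% of all promoters. TATAAA stood in that of Fos (12.4% of all), CCAAT in those of Jun and Junb (33.85%), and GGGCGG in 6 of the 8 (32.7%). The printed Jund stretch holds no match. A match to letters is a description of the window only. Bases outside those 250 were not searched, so a site farther from the start, for Fos or any other gene, would not be seen.

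Each array gave 1 intensity per probe set, which was used as quantile normalized log2(intensity + 16). Differences below are space flight minus ground control on that log2 scale, and fold values understate the change of dim genes. A probe set is called measured where its mean over the 4 arrays reached the median of all probe sets, 6.40. That held for 9 of the 13 member probe sets, covering 7 genes, and the lowest ground control mean among those 9 was 7.32. Fosb, Batf3 and the second probe sets of Fosl1 and Jund were dimmer. The RNA had an integrity number of 3 in every pool, and the Gapdh control, read at both transcript ends, had 3′ over 5′ ratios of 4.09 and 15.2 in flight, against 4.13 and 3.33 on the ground. Where 2 values of a group are given, they are of its arrays 1 and 2 in that order. The 2 space flight arrays differed more from each other than the ground control arrays did for 12 of the 13 member probe sets, against 59.6% of all probe sets. Whether the RNA quality of space flight array 2 had a part in the member values was not tested.

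None of the 9 measured member probe sets passed limma's test at an adjusted p of 0.05, in either direction, while 0.0488% of the 22519 measured probe sets did, 0.0444% higher and 0.00444% lower (10 higher and 1 lower, 6 and 2 with the intensities as deposited, 15 and 3 with cyclic loess, and none with each array shifted to 1 median). Before adjustment, 4 of the 9 had a p under 0.05, all with positive differences, against 12.0% of measured probe sets in either direction and 5.43% with positive differences. These 4 belonged to Jun, Junb, Jund and Fosl2. Their space flight values both lay above both ground control values, as they did for 20.7% of measured probe sets. Fos lay wholly below, as did 22.5% of measured probe sets. Several members passed with 1 flight array left out, as given below for each. In those fits 4.94% of measured probe sets were called higher without flight array 1 and 3.24% without flight array 2, so such a call is read against a far larger background. With 2 arrays against 2, an exact permutation test cannot give a two-sided p under 0.333.

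**Figure D1:**
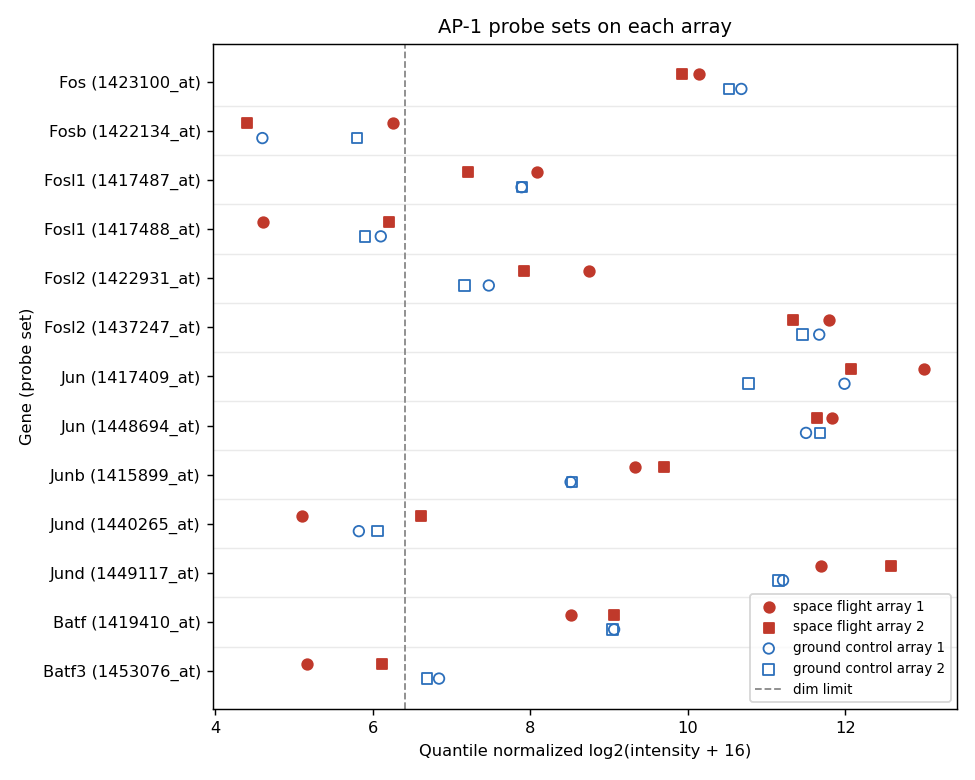
Quantile normalized log2(intensity + 16) of the 13 AP-1 probe sets on each space flight array (filled) and each ground control array (open), with the dim limit of 6.40 as a dashed line. The groups are apart for Fos, Batf3, Junb and 1 probe set each of Fosl2, Jun and Jund, and the space flight arrays lie farther from each other than the ground control arrays in 12 of the 13 rows.

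Of the Jun group, Junb gave the most even picture. JunB is a Jun protein that activates many sites more weakly than c-Jun and takes part in cytokine responses of macrophages. Its 1 probe set had intensities of 639 and 777 in the flight cultures, against 359 and 342 in the ground cultures. Both flight values lay well above both ground values, and the ground arrays were nearly equal. Normalized values averaged 9.51 ± 0.26 (SD) over the 2 flight arrays and 8.52 ± 0.012 (SD) over the 2 ground arrays. The difference of 0.99 ± 0.33 (SE), a 1.99-fold ratio with a 95% interval from 0.25 to 1.73 on the log2 scale, did not pass limma's test (adjusted p = 0.279). Without flight array 1 the difference was 1.18 and passed limma's test (adjusted p = 0.0182), and without flight array 2 it was 0.81 and did not (adjusted p = 0.184).

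Jund encodes the Jun protein that most tissues hold at a steady level, and it is less tied to stimuli than its relatives. Its brighter probe set had intensities of 3323 and 6166 in the flight cultures, against 2404 and 2268 in the ground cultures. The groups did not overlap, and space flight array 2 stood far above array 1. Normalized values averaged 12.14 ± 0.62 (SD) over the 2 flight arrays and 11.18 ± 0.039 (SD) over the 2 ground arrays. The difference of 0.96 ± 0.30 (SE; 1.94-fold; 95% interval 0.28 to 1.63) had the smallest p of the members, 0.0104 in limma, which ranked 902 among the 22519 measured probe sets and gave an adjusted p of 0.259. It was 1.40 without flight array 1, where limma's adjusted p was 4.48e-05, and 0.51 without flight array 2, where it was 0.275.

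The dimmer Jund probe set did not repeat that separation. It read 17.6 and 99.8 in the flight cultures, against 34.3 and 48.0 in the ground cultures, so the ground values lay between the flight values. Its mean of 5.90 was under the dim limit, and in a fit with no dim filter its difference was −0.087 ± 0.72 (SE; limma adjusted p = 0.986). The measured genes whose normalized pattern over the 4 arrays lay nearest to that of the brighter Jund probe set, among 11140 others and each centred on its own mean, were Sfi1, Nkapd1 and Lsm7, at Euclidean distances of 0.06, 0.10 and 0.12 on the log2 scale. With 4 values per gene and so many genes searched, near patterns are easily found, and shared regulation was not tested.

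Jun encodes c-Jun, the founding partner of Fos and a substrate of the JNK kinases. Its 2 probe sets differed in what they showed. Probe set 1417409_at had intensities of 7932 and 4172 in the flight cultures, against 4056 and 1728 in the ground cultures. The groups were barely apart, since space flight array 2 and ground control array 1 were close, and each group was widely spread. Normalized values averaged 12.53 ± 0.65 (SD) over the 2 flight arrays and 11.38 ± 0.86 (SD) over the 2 ground arrays, a difference of 1.15 ± 0.41 (SE; 2.22-fold; 95% interval 0.23 to 2.08). It did not pass limma's test (adjusted p = 0.313). It was 1.62 without flight array 2, where it passed (limma adjusted p = 0.000157), and 0.69 without flight array 1, 1.76 without ground array 1 and 0.54 without ground array 2, where it did not (adjusted p = 0.0932, 0.488 and 1.000).

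Probe set 1448694_at of Jun read 3620 and 3086 in the flight cultures, against 2912 and 3328 in the ground cultures. These groups overlapped and all 4 values were close. The difference was 0.15 ± 0.23 (SE), with a 95% interval from −0.36 to 0.66 (limma adjusted p = 0.837). It was −0.10 with each array shifted to 1 median, a scaling under which the median difference of all probe sets was −0.11.

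**Figure D2:**
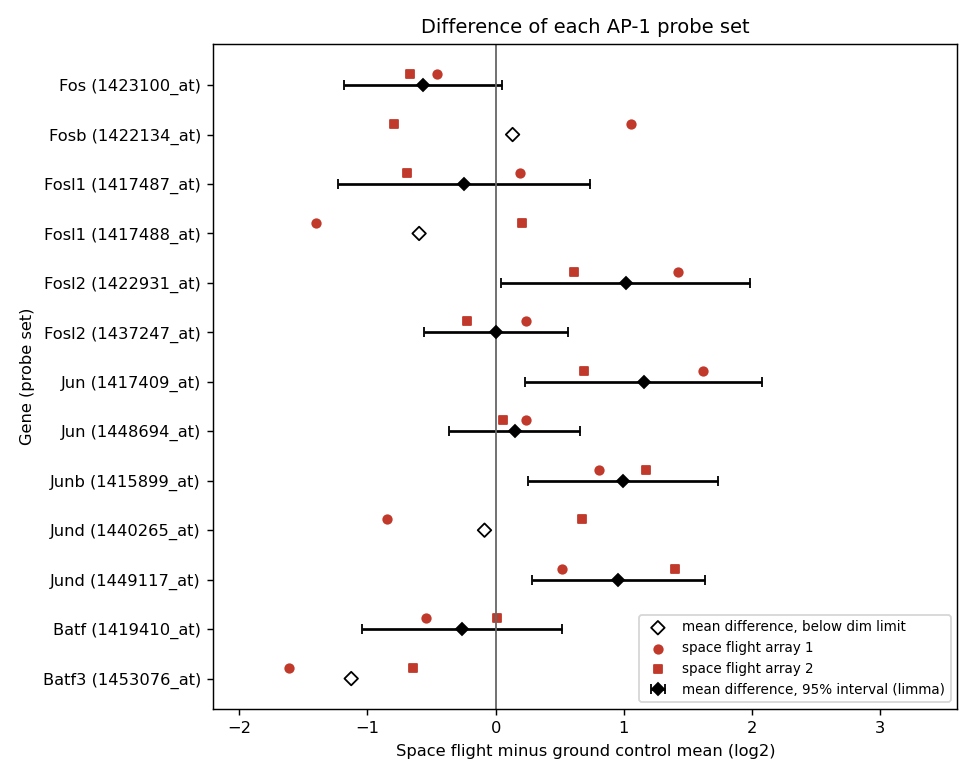
Differences of the 13 AP-1 probe sets on the log2 scale, with limma's 95% interval for the 9 measured ones (filled diamonds), no interval drawn for the 4 dimmer ones (open diamonds), and each space flight array set against the ground control mean (red). The intervals of Junb and of 1 probe set each of Jun, Jund and Fosl2 lie above 0, but none of the 9 passed after adjustment.

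The Fos group did not stand together. Fos itself, the classical immediate early gene, had intensities of 1141 and 910 in the flight cultures, against 1674 and 1452 in the ground cultures. Both flight values lay below both ground values, and replicates were close in each group. Normalized values averaged 10.03 ± 0.15 (SD) over the 2 flight arrays and 10.60 ± 0.11 (SD) over the 2 ground arrays. The difference of −0.57 ± 0.27 (SE), with a 95% interval from −1.18 to 0.05, did not pass limma's test (adjusted p = 0.457). It kept its sign under all 15 alternatives run, from −0.81 with each array shifted to 1 median to −0.46 without flight array 2.

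Fosb, a close relative of Fos and also an early response gene, was dim on every array. Its probe set read 57.3 and 7.02 in the flight cultures, against 6.69 and 37.8 in the ground cultures. The highest and the lowest normalized value were both from space flight, and with no dim filter the difference was 0.13 ± 0.75 (SE; limma adjusted p = 0.979).

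Fosl1 encodes Fra-1, a Fos relative without the strong activation domain of Fos. Its brighter probe set read 258 and 145 in the flight cultures, against 225 and 211 in the ground cultures. The flight values lay on both sides of the ground values, and the difference was −0.25 ± 0.44 (SE; limma adjusted p = 0.863). It was 0.19 without flight array 2 and −0.69 without flight array 1. The second probe set, under the dim limit, read 7.85 and 74.0 in space flight and 45.3 and 41.4 in ground control, with the 2 flight arrays in the opposite order. With no dim filter its difference was −0.60 ± 0.72 (SE; limma adjusted p = 0.855).

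Fosl2 encodes Fra-2, which like Fra-1 lacks that domain. Its dimmer measured probe set, 1422931_at, read 415 and 231 in the flight cultures, against 161 and 120 in the ground cultures. The groups were apart, with array 1 the higher in both. Normalized values averaged 8.33 ± 0.57 (SD) over the 2 flight arrays and 7.32 ± 0.22 (SD) over the 2 ground arrays. The difference of 1.01 ± 0.43 (SE; 2.02-fold; 95% interval 0.04 to 1.99) did not pass limma's test (adjusted p = 0.400). Without flight array 2 it was 1.42 and passed (limma adjusted p = 0.0275), and without flight array 1 it was 0.61 and did not (adjusted p = 0.409). The brighter probe set, 1437247_at, read 3536 and 2470 in space flight and 3268 and 2838 in ground control. There the ground values lay between the flight values, and the difference was 0.0031 ± 0.25 (SE), with a 95% interval from −0.56 to 0.57.

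The 2 measured probe sets of Fosl2 and of Jun therefore gave unlike differences for the same gene, and the deposited tables hold nothing on which part of the transcript each one reads. Over all 13 member probe sets the median difference was 0.0031, beside 0.0048 over all 45037 probe sets other than controls. Positive differences numbered 7 and negative ones 6. The groups did not overlap for 6 of the 13, 4 with space flight above and 2 with it below, while 38.5% of all probe sets were apart in 1 of these ways (19.1% above and 19.4% below).

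**Figure D3:**
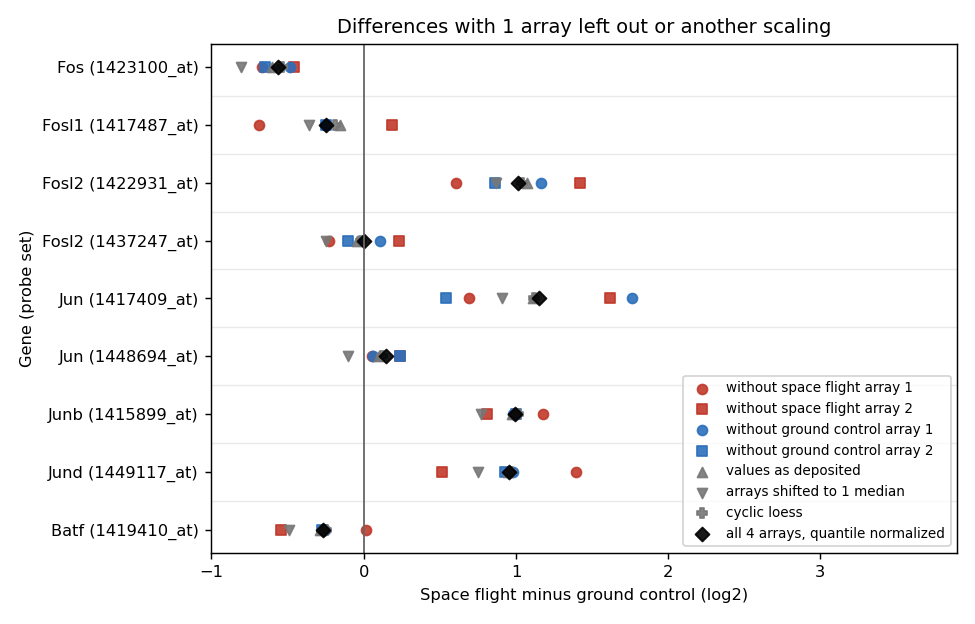
Differences of the 9 measured AP-1 probe sets on the log2 scale with all 4 arrays (black), with 1 array left out (red and blue) and under 3 other scalings (grey). Junb, Jund, Fosl2 1422931_at and Jun 1417409_at stayed above 0 and Fos below 0 in every setting drawn, while the other 4 crossed 0 or lay close to it.

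Batf and Batf3 encode small zipper proteins that pair with Jun proteins and, with interferon regulatory factors, act in lymphocytes and dendritic cells. Batf read 352 and 503 in the flight cultures, against 535 and 500 in the ground cultures. After normalization, flight array 2, at 9.06, was level with the ground values of 9.06 and 9.04, and flight array 1, at 8.51, lay below them. The difference was −0.26 ± 0.35 (SE; 95% interval −1.04 to 0.52; limma adjusted p = 0.806), −0.54 without flight array 2 and 0.013 without flight array 1.

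Batf3 read 19.0 and 69.0 in the flight cultures, against 91.5 and 82.1 in the ground cultures. Both flight values lay below both ground values. Normalized values averaged 5.64 ± 0.68 (SD) over the 2 flight arrays and 6.77 ± 0.11 (SD) over the 2 ground arrays, so it passed the dim limit in ground control only. The difference of −1.13 ± 0.66 (SE) did not pass limma's test in the fit with no dim filter (adjusted p = 0.686). It was −1.61 without flight array 2, and −0.64 without flight array 1, where it passed the dim limit but not the test (limma adjusted p = 0.513).

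No marker of any cell type list passed limma's test after adjustment. For genes, each taken at its brightest probe set, the background was 0.0180% called higher and 0.00898% lower, and 6.22% and 6.69% at an unadjusted p under 0.05. Both space flight values lay above both ground control values for 23.0% of measured genes, and below both for 22.5%. In bulk RNA, fewer cells of a type and less RNA per cell cannot be told apart. Macrophage markers were present, with 9 of 10 measured and Csf1r at 14.89 in space flight and 15.26 in ground control. Of these 9, 5 had an unadjusted p under 0.05 with negative differences and none with a positive one, 6 lay wholly below ground control and 1 above, and the median difference was −0.37. The summed deposited intensities of all 10, in which the few brightest genes weigh most, were 100970 and 141459 on the space flight arrays, against 115669 and 125339 on the ground control arrays. Neutrophil markers, 8 of 9 measured, had a median difference of 1.47, with 7 positive and 1 negative (Mmp8, at −0.64) at an unadjusted p under 0.05, and summed to 74862 and 137892 in space flight and to 45229 and 49463 in ground control. Erythroid markers, 6 of 7 measured, had a median of 1.29, with 4 positive and no negative ones at an unadjusted p under 0.05, and summed to 6426 and 13033 in space flight and to 1617 and 3272 in ground control. The macrophage, neutrophil and erythroid sums, and the T and NK cell sum below, were all highest on space flight array 2. That array had the highest median deposited intensity, 95.5, against 74.3 on space flight array 1 and 69.4 and 73.0 in ground control. Junb and the brighter Jund probe set were highest on it too, whereas Jun and Fosl2 were highest on space flight array 1. Dendritic cell markers, 2 of 8 measured and with Xcr1, Flt3 and Zbtb46 under the dim limit, summed to 1775 and 2479 in space flight and 2737 and 3706 in ground control. The 2 measured were Irf8, at −0.60, and Itgax, at −0.76. Irf8 alone gave 1188 and 1630 of the space flight sums and 1970 and 2402 of the ground control sums. The dim ones went both ways, from 0.63 for Zbtb46 to −0.42 for Xcr1. T and NK cell markers, 2 of 7 measured with Cd3d, Cd3e and Cd3g dim, summed to 230 and 480 against 310 and 308. Osteoclast markers, 5 of 7 measured, lay on both sides, with a median difference of −0.25. At an unadjusted p under 0.05 in limma, 1 was positive (Mmp9, at 1.73) and 1 negative (Ctsk, at −1.02). Acp5, another of these markers, stood at 0.73 ± 0.36 (SE). The part of these cells in the member values was not tested.

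Around the members, the zipper proteins that pair or compete with AP-1 had 11 of 12 listed genes matched, all measured. None passed limma's test, 2 had an unadjusted p under 0.05 with positive differences and none with a negative one, and the median difference was 0.34, where that of all 11141 measured genes was 0.02. At that unadjusted p, 6.22% of measured genes were higher and 6.69% lower, the background for this list and for each list below. Nfil3, a repressor induced by cytokines, had normalized values of 10.59 and 10.19 in space flight and 9.15 and 9.32 in ground control, a difference of 1.16 ± 0.30 (SE; limma adjusted p = 0.199). The small Maf gene Mafg stood at 0.60 ± 0.22 on its brightest probe set (limma adjusted p = 0.322) and at −0.27 on its other one. Atf3, a stress-induced partner of Jun, was bright in all cultures and stood at −0.12 ± 0.19.

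Of the MAP kinase list, 13 of 17 genes were matched and 12 measured, with a median difference of −0.07. None passed limma's test, and 2 had an unadjusted p under 0.05, both with negative differences. Mapk14, the p38 alpha kinase, read 10.95 and 11.01 in space flight and 12.01 and 12.15 in ground control, a difference of −1.10 ± 0.23 (SE; limma adjusted p = 0.145). Its 3 other measured probe sets gave −1.37, −0.67 and 0.38. Map3k8, the kinase that links Toll-like receptors to ERK, stood at −0.94 ± 0.30 (limma adjusted p = 0.267). The JNK genes Mapk8 and Mapk9 stood at −0.30 ± 0.42 and −0.26 ± 0.26.

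The list drawn up as nuclear activators of Fos and Jun transcription had a median difference of −0.25 over 11 measured genes. None passed limma's test, and 3 had an unadjusted p under 0.05, all negative: Mrtfb, Mef2a and Elk3. Elk3 stood at −0.97 ± 0.30 on its brightest probe set (SE; limma adjusted p = 0.259). Elk3 and Crem, both in the list, can also act as repressors, so it does not hold activators only. Mrtfb, a coactivator of serum response factor that answers to actin, read 11.44 and 10.85 in space flight and 12.19 and 12.17 in ground control. Its difference was −1.03 ± 0.26 (SE; limma adjusted p = 0.191), and its 2 other measured probe sets gave −1.81 and 0.43. Mef2a, a factor that binds the Jun promoter, stood at −0.79 ± 0.24 (limma adjusted p = 0.249), and its 4 other measured probe sets gave −0.71, −0.18, −0.22 and −0.85, with the groups overlapping for the −0.18 and −0.22. Srf itself stood at 0.52 ± 0.34 and Elk1, a partner of Srf at the Fos gene, at 0.22 ± 0.56.

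Genes that restrain AP-1 proteins or their transcripts had a median of 0.34 over 11 measured genes. None passed limma's test, 2 had an unadjusted p under 0.05 with positive differences, and none with a negative one. Tob1, an antiproliferative protein that recruits deadenylases to transcripts, stood at 1.08 ± 0.28 (SE; limma adjusted p = 0.199). Dusp1, the phosphatase that switches off p38 and JNK, stood at 0.70 ± 0.26 (limma adjusted p = 0.332). Zfp36, which marks AU-rich transcripts such as Fos for decay, stood at 0.41 ± 0.33.

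Textbook AP-1 target genes lay on both sides. Of 20 listed genes 19 were matched and 16 measured, with a median of 0.21, none passing limma's test, and 4 positive and 4 negative ones at an unadjusted p under 0.05. The gelatinase gene Mmp9 read 8.99 and 8.89 in space flight and 6.77 and 7.66 in ground control, a difference of 1.73 ± 0.42 (SE; limma adjusted p = 0.186), and 2.25 on its other probe set. Ctsk, the collagen-degrading cathepsin of osteoclasts, stood at −1.02 ± 0.20 (limma adjusted p = 0.138). Mmp9, Ctsk, Acp5 and Nfatc1 were also among the osteoclast markers above, so the same values enter both lists. The rest ran from Timp1, an inhibitor of metalloproteinases, at 1.28 ± 0.48 to the adhesion receptor gene Cd44 at −0.48 ± 0.19. The metallothionein gene Mt1 stood at 0.69 ± 0.19 and the intermediate filament gene Vim at −0.37 ± 0.13.

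Other immediate early genes had the highest median of the 6 lists, 0.80 over 15 measured genes. Again none passed limma's test, and 6 had an unadjusted p under 0.05, all positive, beside 6.22% higher among all measured genes. The groups did not overlap for 13 of the 15, 11 above and 2 below, beside 23.0% above and 22.5% below among measured genes. Ppp1r15a, which restores translation after stress, read 11.89 and 11.57 in space flight and 10.61 and 10.12 in ground control, a difference of 1.36 ± 0.28 (SE; limma adjusted p = 0.144). Ier3 stood at 0.92 ± 0.18 (limma adjusted p = 0.138). The largest differences among the measured genes of this list were positive: Nr4a1 at 2.33 ± 0.49, Btg2 at 1.60 ± 0.37 and Gadd45b at 1.56 ± 0.36. The ground control mean of Nr4a1, 6.13, was under the dim limit. Egr1 stood at 1.33 ± 0.40. Egr2 and Myc, at −0.49 ± 0.31 and −0.47 ± 0.36, were the 2 below, the side on which Fos stood.

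**Figure D4:**
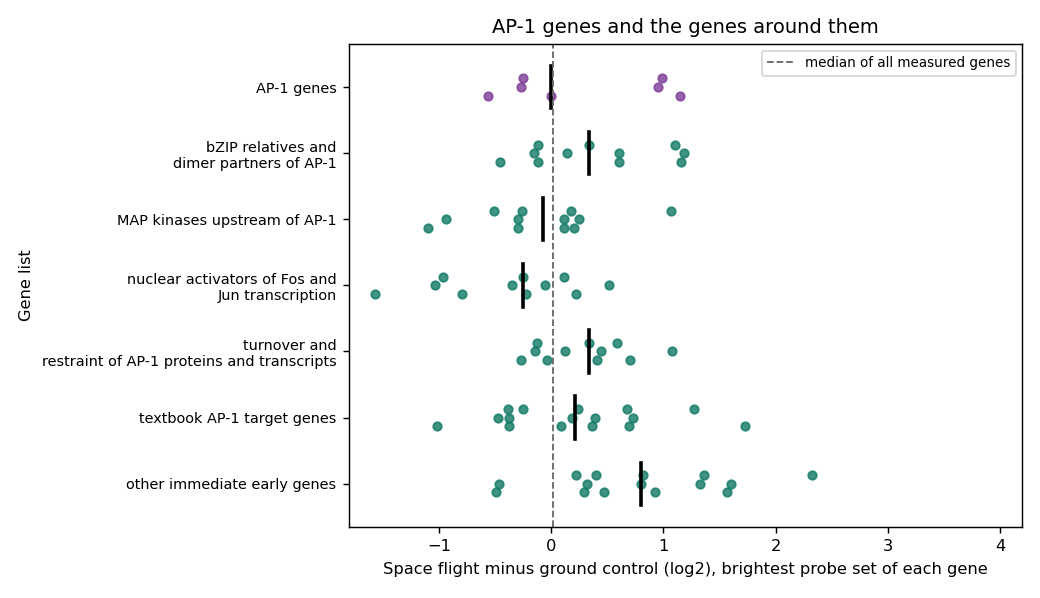
Differences on the log2 scale of the measured AP-1 genes (purple) and of the measured genes of the 6 lists around them (green), each gene at its brightest probe set, with list medians as black bars and the median of all measured genes, 0.02, as a dashed line. The AP-1 genes spread on both sides of it, and the other immediate early genes have the highest median, 0.80.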

How the data were processed

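Per the labels' protocols, RNA went through linear amplification and biotin labelling before hybridisation to Affymetrix arrays. The deposited table holds 1 linear intensity per probe set and array. GCOS is named in the submitters' processing notes, with its version not stated, and neither the summarising algorithm nor the genome build is given in the sources used here. The deposited intensities had a 2% trimmed mean of 500.004 on each array, and their number limits precision.

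From these, log2(intensity + 16) was quantile normalized in R 4.3.3 without the 64 control probe sets, since array medians differed by up to 0.385. A single gene symbol was available for 34945 of the remaining probe sets, several for 932 and none here for 9160; members and lists were matched to single symbols. The 2 groups were compared with limma 3.58.1 (lmFit, eBayes with intensity trend, two-sided, 2 residual and 9.31 moderated degrees of freedom), with Benjamini-Hochberg adjustment over the 22519 probe sets with a mean of at least 6.40. All SE and adjusted p of probe sets come from this fit unless another is named. When it was tested on simulated data, not all changed probe sets were recovered, and the share of false calls was above the threshold. Gene lists used the brightest probe set of each gene. Beside all members, the 2 genes of each list with the smallest p were named, and other list genes were added after their values were seen. Members and lists were chosen with earlier results of these data known. Alternatives covered the pseudocount, scaling, dim filter, variance trend, probe set choice, a replicate block and leaving out each array.

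The replicate numbers shared by the groups did not pair the cultures in the labels; the deviations of same-numbered arrays correlated at 0.07 across measured probe sets.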

Additional observations from a re-analysis of the deposited data

How the results depend on the processing

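No member probe set was called lower under any of the 15 alternatives, and none was called higher under 12 of them. The exceptions were the fits leaving out either space flight array, with 2 each, and the replicate block, with 1 (Jun 1417409_at, adjusted p = 0.0165); leaving out 1 array gave a range of 0 to 2. Those fits take the spread of the remaining array from the complete group. As the numbers share only a label, the block is no better matched to the design, and it gave 164 higher and 170 lower probe sets. Against 10 higher and 1 lower with the settings used, counts over all probe sets were 6 and 2 with values as deposited, 34 and 29 with a dim filter at the 75th percentile, 5 and 2 with the brightest probe set of each gene, and 0 and 0 with each array shifted to 1 median, with no dim filter, with no intensity trend and with plain _at probe sets only. A pseudocount of 64 gave 4 lower and cyclic loess 3 lower. Without 1 array the counts ran from 1 to 1113 higher and from 0 to 1752 lower, the highest without space flight replicate 1; without space flight replicate 2 they were 729 and 973. The median difference over the 13 members ran from −0.20 to 0.23 there, without ground control replicate 1 and without space flight replicate 2. Signs turned for several members: Fosl2 1437247_at had −0.043 as deposited, −0.25 with arrays shifted to 1 median, −0.018 with cyclic loess and −0.23 to 0.23 without 1 array (−0.10 without ground control replicate 2), Jun 1448694_at had −0.10 with arrays shifted to 1 median, and without 1 array Fosl1 1417487_at ran from −0.69 to 0.19 and Batf from −0.54 to 0.013. Among dim members, without 1 array Fosb ran from −0.79 to 1.06, Fosl1 1417488_at from −1.40 to 0.21 and Jund 1440265_at from −0.85 to 0.67, the last at 0.14 as deposited. The cause was not tested. The 4 dim members were tested only with no dim filter and, for Batf3, without space flight replicate 1, and did not pass.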
